A study of Mus musculus with 6 samples.

Results

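Small nucleolar RNAs (snoRNAs) were examined in primary mouse embryonic fibroblasts (MEFs) in which Kansl1 was or was not targeted for deletion. Kansl1 encodes a subunit of the NSL histone acetyltransferase complex. A snoRNA gene was included when its symbol was Snora or Snord followed by a number and when its mean over the 6 samples was at least 1 TPM, the usual length-scaled unit of transcript abundance, which also scales each library to the same sum. Of 35 genes with such a symbol among the 26898 rows of the expression table, 30 met this rule, 19 of the box C/D class (Snord) and 11 of the box H/ACA class (Snora). The 3 WT samples (numbered 4, 5 and 8) were Kansl1fl/fl cells, which carry loxP-flanked Kansl1 alleles but no Cre. The 3 KO samples (numbered 3, 7 and 10) were Kansl1fl/fl/CAG-cre cells, in which the broadly active CAG promoter drives a tamoxifen-inducible Cre. Cells of both groups were on the C57BL/6 background, had been isolated from embryos at mid-gestation, were at passage 3 in medium with 10% serum per the labels (the study's methods give another percentage) and had received 1 μM tamoxifen for 48 h. The groups differ in the Cre transgene as well as in Kansl1, so the effects of Cre and of Kansl1 loss cannot be told apart.

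snoRNAs are short, stable nuclear RNAs that guide chemical modification of other RNAs by base pairing, mainly of ribosomal RNA. Box C/D snoRNAs carry a box C near the start and a box D near the end, are bound by Snu13, Nop56, Nop58 and the methyltransferase fibrillarin (Fbl), and direct ribose methylation. Box H/ACA snoRNAs fold into hairpins, end in a conserved ACA, are bound by Nhp2, Nop10, Gar1 and the pseudouridine synthase dyskerin (Dkc1), and direct the conversion of uridine to pseudouridine. Most mammalian snoRNAs are not transcribed from their own promoters but are cut out of introns of host genes, many of which encode ribosomal proteins or are the non-coding small nucleolar RNA host genes (Snhg), and are then trimmed by exonucleases.

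The sequences of the snoRNAs to which the results below refer are shown first, from the GRCm38 genome at the coordinates of the GENCODE M21 genes, written 5′ to 3′ as DNA. In the box C/D members the capitals mark TGATGA, taken as box C when it began within the first 15 bases, and CTGA, taken as box D when it ended within the last 15 bases. Snord104 and Snord17 had the smallest errors of the class, Snord49a was next in level, and Snord53 and Snord88c are shown because they lack 1 of the boxes by these letters.
Snord104: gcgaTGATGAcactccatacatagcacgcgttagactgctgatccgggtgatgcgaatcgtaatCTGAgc
Snord49a: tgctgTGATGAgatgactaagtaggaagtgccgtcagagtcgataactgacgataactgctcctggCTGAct
Snord53: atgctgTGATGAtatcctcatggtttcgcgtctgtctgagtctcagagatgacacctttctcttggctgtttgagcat
Snord88c: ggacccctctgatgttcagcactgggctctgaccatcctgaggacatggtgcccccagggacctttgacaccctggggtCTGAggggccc
Snord17: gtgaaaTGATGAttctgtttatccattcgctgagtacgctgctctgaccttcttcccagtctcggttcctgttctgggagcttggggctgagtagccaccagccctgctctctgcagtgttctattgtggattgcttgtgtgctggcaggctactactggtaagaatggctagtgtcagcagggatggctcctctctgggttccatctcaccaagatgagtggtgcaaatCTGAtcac

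In the box H/ACA members the capitals mark an ACA that stands 3 bases before the 3′ end. Snora31 and Snora17 had the highest levels of this class, Snora69 and Snora41 had the next highest, and Snora21 and Snora78 had the highest fold changes. Snora17 does not hold an ACA at that distance in the annotated sequence.
Snora31: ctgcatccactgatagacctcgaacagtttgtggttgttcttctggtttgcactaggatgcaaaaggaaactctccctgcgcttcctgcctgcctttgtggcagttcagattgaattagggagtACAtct
Snora17: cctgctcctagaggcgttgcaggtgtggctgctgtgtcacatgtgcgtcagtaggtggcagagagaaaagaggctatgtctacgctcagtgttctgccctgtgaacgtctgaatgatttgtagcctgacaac
Snora69: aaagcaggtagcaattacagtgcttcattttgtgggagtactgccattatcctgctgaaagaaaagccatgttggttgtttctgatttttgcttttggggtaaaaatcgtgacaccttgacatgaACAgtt
Snora41: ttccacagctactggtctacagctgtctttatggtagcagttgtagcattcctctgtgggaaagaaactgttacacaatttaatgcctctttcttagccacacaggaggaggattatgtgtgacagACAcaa
Snora21: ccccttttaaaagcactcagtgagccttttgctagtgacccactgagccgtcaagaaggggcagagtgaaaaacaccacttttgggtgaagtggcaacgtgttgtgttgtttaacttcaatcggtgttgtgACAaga
Snora78: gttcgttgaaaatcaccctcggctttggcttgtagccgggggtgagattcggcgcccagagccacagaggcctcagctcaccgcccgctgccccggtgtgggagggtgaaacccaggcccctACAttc

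The annotated sequences were checked against the class in each symbol. Box C was found in 16 of the 19 box C/D members, box D in 18 and both in 15. None of the 11 box H/ACA members held box C at its place, 1 held box D (Snora17), and 9 held the terminal ACA. Among 6540 other annotated transcripts of 60 to 240 bases, 0.566% held box C, 7.645% held box D, 0.061% held both and 1.927% held the terminal ACA, each searched on the strand of the transcript. The box C/D members were 66 to 238 bases long with a median of 85, and the box H/ACA members were 128 to 184 bases long with a median of 132. A near copy, with at least 95% identity over at least 90% of the length, was annotated elsewhere for Snora21 (Gm23795), Snora30 (Gm25133) and Snora41 (Gm23723), so reads of these members may have been split between copies, and their values are uncertain.

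Kansl1 itself was measured at 28.5, 26.7 and 24.4 TPM in WT 4, 5 and 8 and at 13.7, 15.8 and 14.4 TPM in KO 3, 7 and 10. Every KO sample was below every WT sample, and Kansl1 fell by 0.82 on the log2 scale (SE 0.11, limma adjusted p = 0.00086). Kansl1 RNA was thus lower but still present in the KO samples, and the value covers the whole gene, with the deleted exons not measured apart. Libraries held 17655495 to 27718259 reads assigned to genes, and 1 RNA, Gm23935, took 15.5% to 25.6% of all TPM. The 9 fibroblast markers checked summed to 10274 to 14851 TPM in WT and 11002 to 14435 TPM in KO samples. The 6 macrophage markers summed to 7.25 to 9.16 TPM in WT and 11.8 to 24.6 TPM in KO samples. All 4 that were high enough to test were above WT in every KO sample, where 13.3% of all tested genes had that pattern. Of these, Adgre1 and Mrc1 had WT means of 0.75 and 0.49 TPM. They met the level rule only through the KO samples, so they are no support for a difference. None of the 4 was called, where 1.64% of all tested genes were called higher. The part of the macrophage markers in the results below was not tested. The 4 endothelial markers summed to 1.10 to 1.87 and 2.31 to 3.10 TPM, and epithelial, neuronal and erythroid markers each summed to under 1 TPM in every sample.

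The 30 snoRNAs were covered by few reads. One read in Snord104 was worth 1.47 to 1.96 TPM, depending on the library. The mean number of reads per sample was 1 to 40.3 over the members with a median of 7.92, it was at least 10 for 9 members, and 11 members had no read in at least 1 sample. The standard error of the log2 fold change was 0.10 for Snord104 with a mean of 25.7 reads and 0.82 for Snord110 with a mean of 1.83 reads. The most abundant RNAs of a class held most of its signal, with 60.9% of the summed box C/D TPM in the 5 highest members and 79.2% of the summed box H/ACA TPM in the 5 highest. All intervals on reads given below cover counting error only.

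**Figure D1:**
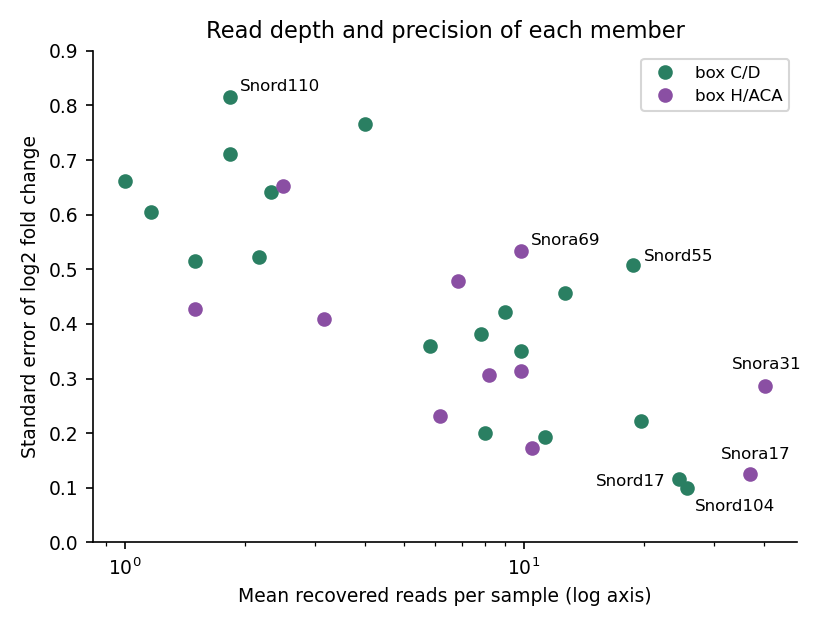
Mean recovered reads per sample (horizontal, log axis) against the standard error of the log2 fold change between KO and WT on log2(TPM + 1) (vertical), 1 point for each of the 30 snoRNAs, coloured by class. The errors are largest to the left, where members such as Snord110 rest on a mean of 1.83 reads, and smallest for Snord104 (0.10), Snord17 (0.12) and Snora17 (0.13), while Snora31, with the most reads, has an error of 0.29.

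None of the 30 members passed the thresholds of the study between KO and WT cells, an adjusted p under 0.005 and a log2 fold change beyond 0.5 in either direction, by limma on log2(TPM + 1) over 14799 genes. Of all tested genes, 1.64% were called higher in KO cells and 9.03% were called lower. At an unadjusted limma p under 0.05, 11 of the 30 members were higher and 0 were lower, where the shares of all tested genes were 12.2% and 27.2%. With voom on the recovered reads, 9 members had enough reads to test and 0 were called, where 3.05% of all tested genes were called higher. All 8 members whose sample groups did not overlap had the KO samples above the WT samples, 3 of the box C/D class and 5 of the box H/ACA class, and 13.3% of all tested genes had that pattern while 29.9% had the opposite one. Both the 11 and the 8 include Snora21 and Snora78, with WT means of 0.88 and 0 TPM. Snora21 and Snora78 met the level rules only through the KO samples, so they are no support for a difference. A positive log2 fold change was estimated for 26 of the 30 members, against 42.6% of all tested genes, and the median of the members was 0.42, against -0.07 for all tested genes. Snora21, Snora78 and Snord92, each with a WT mean under 1 TPM, are among the 26. Members that share a host transcript or a library are not independent of each other, and the rule leaves out genes of low level, so these counts describe the 30 genes and carry no test.

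**Figure D2:**
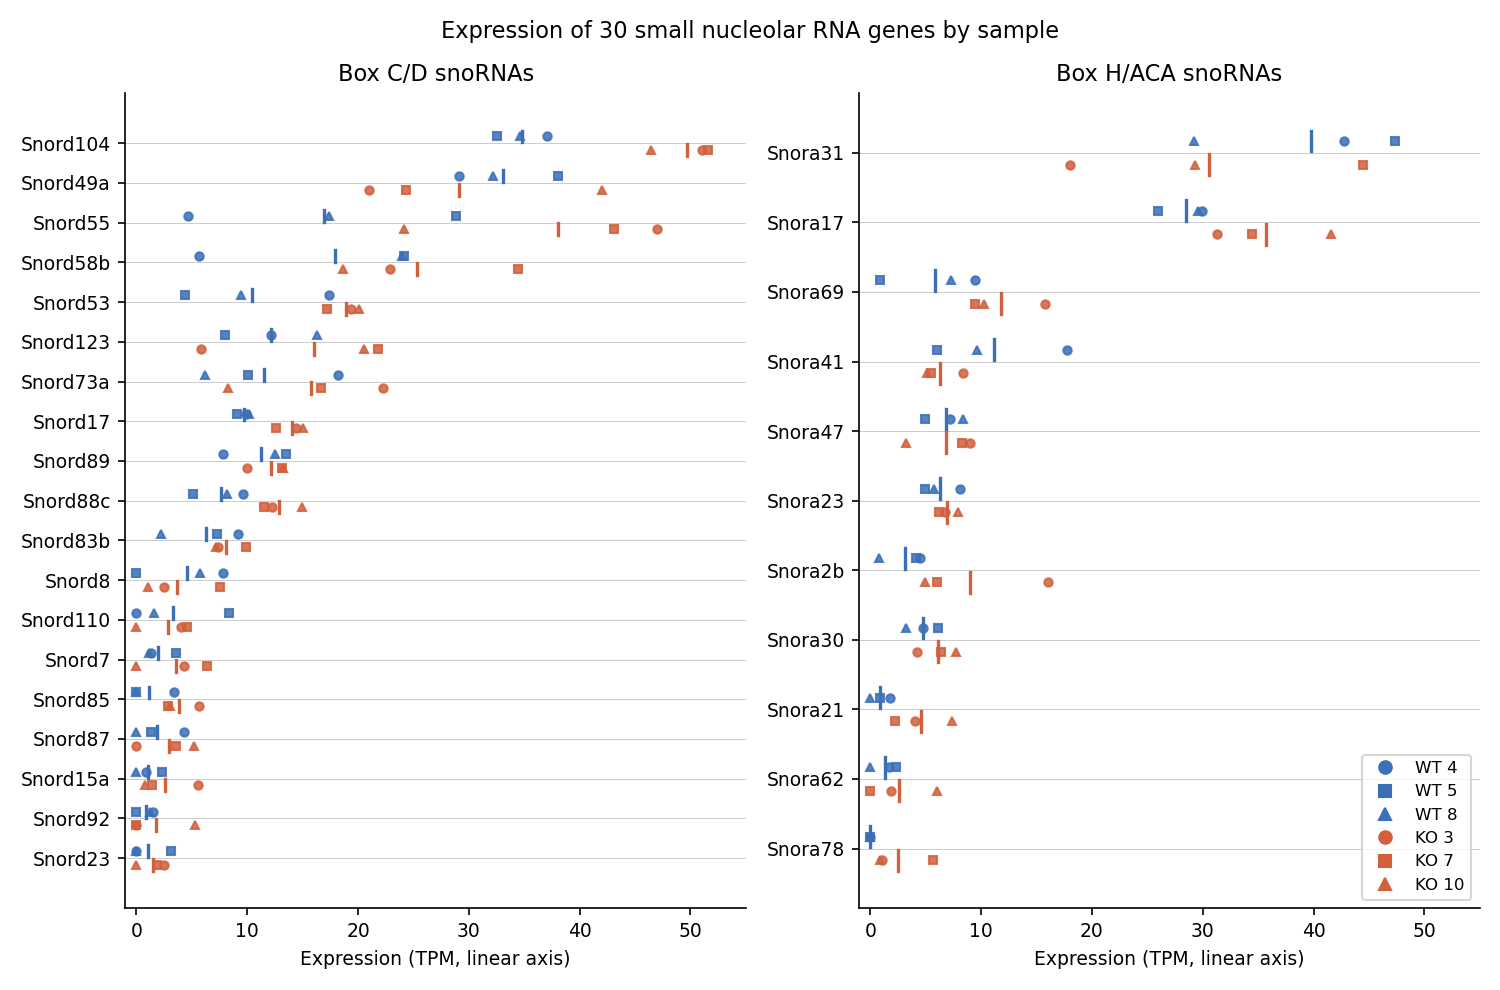
Expression in TPM (horizontal, linear axis) of each box C/D snoRNA (left) and box H/ACA snoRNA (right) in the 3 WT samples (blue) and the 3 KO samples (orange), with a short vertical line at each group mean. Snord104, Snord17 and Snord88c among the box C/D genes and Snora17, Snora69, Snora2b, Snora21 and Snora78 among the box H/ACA genes have all KO points to the right of all WT points.

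The classes were compared by their summed level and by the median fold change. The box C/D members summed to 179.7, 199.7 and 182.9 TPM in WT 4, 5 and 8 and to 257.9, 284.4 and 245.7 TPM in KO 3, 7 and 10, a mean of 187 ± 10.8 against 263 ± 19.8 TPM (SD, n = 3 each) or a ratio of 1.40. All KO sums were above all WT sums. The box H/ACA members summed to 127.7, 103.6 and 93.7 TPM in WT and to 116.2, 128.5 and 124.3 TPM in KO, a mean of 108 ± 17.5 against 123 ± 6.23 TPM (SD, n = 3 each), with overlapping groups and a ratio of 1.14. Snora21 and Snora78 are part of the box H/ACA sums and medians, although they met the level rules only through the KO samples. Their means were 0.88 and 0 TPM in WT and 4.54 and 2.53 TPM in KO samples. Over the members with at least 10 reads, the ratios of the sums were 1.36 for box C/D and 0.98 for box H/ACA. The median log2 fold change was 0.44 over the box C/D members and 0.32 over the box H/ACA members. The spread between replicates of these class medians was 0.12 and 0.17 (SD), and the difference between the classes, which was not tested, was close to the smaller of these. Without KO 10 the medians were 0.71 and 0.20, without WT 8 they were 0.30 and 0.12, and without WT 5 they were 0.48 and 0.44. Over the members with at least 10 reads they were 0.49 and 0.15 (6 and 3 genes). Positive estimates were found for 18 of 19 box C/D members and for 8 of 11 box H/ACA members. Among the 18, Snord8 and Snord110 had estimates of 0.002 and 0.08 but fewer reads in KO than in WT samples (11 against 13 and 5 against 6). Over both classes, positive estimates numbered 24 of 30 with a pseudocount of 0.1 and 27 of 30 with scaling by median of ratios. They ran from 21 of 29 without KO 7 to 24 of 30 without WT 4 or KO 3. The medians stayed positive for both classes under the other pseudocount and under both other scalings, but with only members of at least 10 TPM the box H/ACA median was -0.06 over the 2 that remained.

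**Figure D3:**
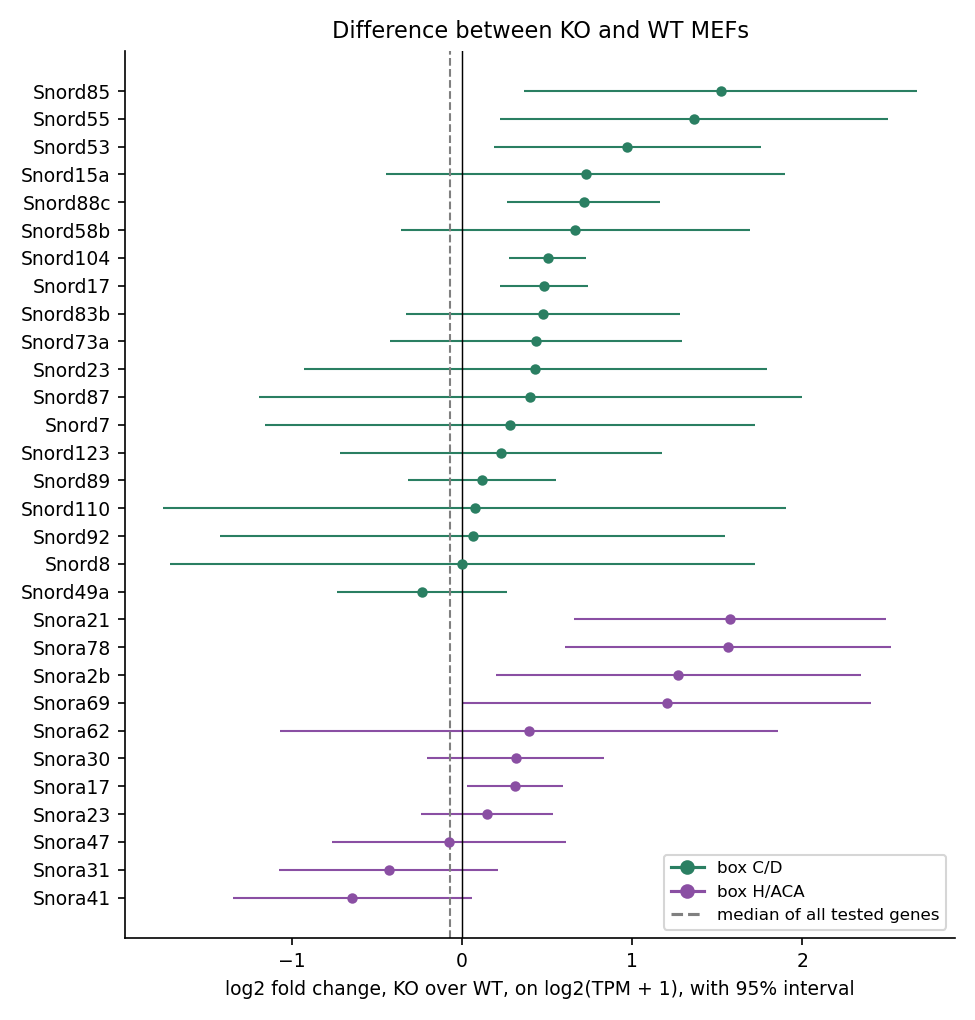
Log2 fold change of KO over WT on log2(TPM + 1) with its 95% interval from limma (horizontal) for each of the 30 snoRNAs, box C/D above and box H/ACA below, ordered by value within each class. A dashed line stands at the median of all tested genes (-0.07), and 26 points lie to the right of 0, while most intervals include 0.

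Snord104 had the highest mean level of all members (42.2 TPM). It lies on chromosome 11 at chr11:106500993-106501062 (GRCm38, plus strand), within no annotated gene of its own strand, and the nearest gene, Tex2, is 1085 bases away on the other strand. It was measured at 37.0, 32.6 and 34.6 TPM in WT 4, 5 and 8 (21, 20 and 23 reads) and at 51.1, 51.6 and 46.4 TPM in KO 3, 7 and 10 (26, 35 and 29 reads). Every KO sample was above every WT sample by more than the range within either group. The log2 fold change was 0.50 (SE 0.10), and the adjusted p of 0.0054 by limma was just above the threshold of 0.005. The ratio of KO to WT reads, scaled by the TPM that 1 read was worth in each library, was 1.43, with a 95% exact binomial interval of 1.03 to 2.00. Scaling by median of ratios gave an adjusted p of 0.0040, rescaling without the 2 most abundant RNAs gave 0.0048, and voom on reads gave 0.11.

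Snord17, at 238 bases the longest member, had 24.5 reads per sample on average and lies in an intron of Snx5, which encodes an endosomal sorting nexin (chr2:144265979-144266216, minus strand). The levels were 9.85, 9.10 and 10.2 TPM in WT and 14.4, 12.6 and 15.1 TPM in KO samples. The groups did not overlap, with a log2 fold change of 0.49 (SE 0.12, limma adjusted p = 0.013) and a read ratio of 1.44 (interval 1.02 to 2.03). Snord88c (chr7:44249852-44249941, plus strand) was at 9.60, 5.07 and 8.20 TPM in WT and at 12.2, 11.5 and 14.9 TPM in KO samples. Its log2 fold change was 0.72 (SE 0.20, limma adjusted p = 0.026), and its read ratio of 1.70 had an interval of 0.92 to 3.23, which includes 1.

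Snord49a and Snord49b lie next to each other on the plus strand of chromosome 11. Snord49a (chr11:62603450-62603521) had the second highest level of the class and was the only box C/D member with a negative estimate. It was measured at 29.1, 38.0 and 32.2 TPM in WT and at 21.01, 24.4 and 42.0 TPM in KO samples. The groups overlapped, with KO 10 highest of all samples, and the log2 fold change was -0.23 (95% interval -0.73 to 0.27), or -0.039 without KO 3 and -0.52 without KO 10 (limma adjusted p = 0.042). Snord49b, below the level rule, had 1 read each in WT 5 and WT 8 and none in the other samples.

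Snord55 varied most among the abundant members. Its values were 4.69, 28.9 and 17.4 TPM in WT (3, 20 and 13 reads) and 47.0, 43.1 and 24.1 TPM in KO samples (27, 33 and 17 reads). KO 10 was below WT 5, so the groups overlapped, and WT 4 was far below the other WT samples. The log2 fold change was 1.36 (SE 0.51, limma adjusted p = 0.074), while the read ratio of 2.18 had a counting interval of 1.45 to 3.33. Without WT 4 the log2 fold change was 0.68, and without WT 5 it was 1.88. Snord53, in an intron of Wdr43, which encodes a ribosome assembly factor (chr17:71640879-71640956, plus strand), was at 17.4, 4.39 and 9.46 TPM in WT and at 19.4, 17.2 and 20.1 TPM in KO samples. The lowest KO value stood just under the highest WT value, with a log2 fold change of 0.97 (SE 0.35, limma adjusted p = 0.067), which was 0.52 without WT 5 and 1.40 without WT 4. Snord58b, in an intron of Rpl17, was at 5.61, 24.2 and 24.0 TPM in WT and at 22.9, 34.4 and 18.7 TPM in KO samples, with overlapping groups and a log2 fold change of 0.67 (95% interval -0.36 to 1.69), which was 0.026 without WT 4.

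The remaining box C/D members had mean reads of 1 to 11.3. Snord123, Snord73a, Snord89 and Snord83b had means of 7.18 to 14.1 TPM, and their log2 fold changes lay between 0.12 and 0.48, with sample groups that overlapped. With 1 sample left out, Snord73a ran from 0.10 to 0.82, and Snord123, Snord89 and Snord83b each crossed 0. Snord8, Snord110, Snord7, Snord85, Snord87 and Snord15a had means of 1.81 to 4.10 TPM. Of these, Snord85 had the highest log2 fold change of the class (1.52, SE 0.51, limma adjusted p = 0.053), from 2, 0 and 0 reads in WT and 3, 2 and 2 reads in KO samples, a read ratio of 3.56 with an interval of 0.68 to 35.2, and without WT 4, which held both WT reads, its log2 fold change was 2.23. Snord23, Snora78 and Snord92 stood just inside the level rule at mean levels of 1.26, 1.27 and 1.33 TPM, and Snord32a, Snora34 and Snord49b stood just outside it at 0.91, 0.54 and 0.51 TPM, each with 0 reads in at least 2 samples.

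Among the box H/ACA members, Snora31 and Snora17 were the highest. Snora31, in an intron of Tpt1, the gene of a translationally controlled tumour protein (chr14:75847905-75848034, plus strand), had the most reads of all members. WT samples held 42.7, 47.4 and 29.2 TPM and KO samples held 17.98, 44.5 and 29.3 TPM. The range within each group covered most of the other group, and the log2 fold change was -0.43 (95% interval -1.07 to 0.21), or -0.11 without KO 3 and -0.74 without KO 7. Snora17 (chr2:26639190-26639321, minus strand) lies in no annotated gene of its strand, with Snhg7os 1051 bases away on the other strand. It was measured at 29.9, 25.9 and 29.6 TPM in WT and at 31.2, 34.4 and 41.6 TPM in KO samples. The groups did not overlap, but the log2 fold change was 0.31 (SE 0.13, limma adjusted p = 0.096), or 0.20 without KO 10 and 0.40 without KO 3. The read ratio of 1.26 had an interval of 0.96 to 1.67.

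Snora69, in an intron of Rpl39 (chrX:37082912-37083042, minus strand), was at 9.42, 0.87 and 7.24 TPM in WT and at 15.7, 9.45 and 10.3 TPM in KO samples. The lowest KO value was within 0.1 TPM of the highest WT value, and WT 5 held a single read. The log2 fold change was 1.21 (SE 0.53, limma adjusted p = 0.12), and it was 0.44 without WT 5 and 1.67 without WT 4. Snora41, in an intron of the translation elongation factor gene Eef1b2 (chr1:63179004-63179135, plus strand), had the lowest log2 fold change of all members. It was at 17.8, 6.05 and 9.59 TPM in WT and at 8.33, 5.47 and 5.09 TPM in KO samples, with a log2 fold change of -0.64 (95% interval -1.35 to 0.06), which was -0.27 without WT 4 and -0.98 without WT 5 (limma adjusted p = 0.022). Snora47, in Zbed3, was at 7.15, 4.96 and 8.41 TPM in WT and at 8.97, 8.23 and 3.25 TPM in KO samples, and its log2 fold change of -0.08 became 0.0013 with scaling by median of ratios.

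Snora21, in an intron of Rpl23 (chr11:97781639-97781775, minus strand), had a log2 fold change close to those of Snora78 (1.56) and Snord85 (1.52). It was measured at 1.80, 0.83 and 0 TPM in WT (2, 1 and 0 reads) and at 4.01, 2.26 and 7.36 TPM in KO samples (4, 3 and 9 reads). The log2 fold change was 1.58 (SE 0.41, limma adjusted p = 0.018), or 2.89 with a pseudocount of 0.1, where that of Snora78 was 4.23, and the read ratio of 5.43 had an interval of 1.55 to 29.1. Snora78 (chr17:24719676-24719803, minus strand), which overlaps Rps2 on the other strand and is annotated within Snhg9, had no read in WT and 1, 7 and 1 reads in KO samples. Against an assumed floor of 3 reads over the WT group, its KO mean of 2.53 TPM was 2.83-fold higher. The exact interval of the read ratio, which also covers counting error in the KO reads, began lower, at 2.01. KO 7, at 5.64 TPM, held most of these reads, while KO 3 and KO 10 were at 1.07 and 0.88 TPM, close to the floor of 0.89 TPM. Both values thus rest mostly on KO 7. Snora78 met the level rules only through the KO samples, so these values are no support for a difference. Snora2b was at 4.50, 4.16 and 0.77 TPM in WT and at 16.1, 6.03 and 4.91 TPM in KO samples, with a log2 fold change of 1.27 (SE 0.48, limma adjusted p = 0.077), which was 0.74 without WT 8 and 0.80 without KO 3. Snora23, Snora30 and Snora62 had log2 fold changes of 0.15, 0.32 and 0.40, with overlapping groups. With 1 sample left out these values ran from 0.018 to 0.32, from 0.12 to 0.52 and from -0.29 to 1.12.

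With a threshold of 0.05 on the adjusted p in place of 0.005, 4 members were called higher by limma (Snord104, Snord88c, Snora21 and Snora78) and 0 lower, where 4.69% of all tested genes met that adjusted p together with a log2 fold change above 0.5. Snora21 and Snora78 had WT means under 1 TPM and met the level rules only through the KO samples, so their calls are no support for a difference. Leaving out WT 4 gave 2 calls at the study's thresholds, of Snord53 and Snord85, where 1.7% of all tested genes were called higher, and leaving out any other sample gave 0. Snord85 had 0 reads in both remaining WT samples, so it met the level rules there only through the KO samples and its call is no support either. When the test was limited to genes averaging 10 TPM or more over all samples, it gave 4 calls among 12 tested members, of Snord104, Snord53, Snord55 and Snord88c, where 3.73% of the genes tested in that fit were called higher. Snord88c, with means of 7.62 TPM in WT and 12.9 TPM in KO samples, reached that limit only through the KO samples, so its call there is no support either. The groups of Snord55 and Snord53 overlapped, and the cause of these calls was not tested.

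snoRNAs were next set beside the genes that contain them. Within the annotation, 28 of the 30 members lay inside a gene of the same strand, 8 of them in ribosomal protein genes. Snora2b shares 92 bases with an exon of Kansl2, whose product is another subunit of the NSL complex, so reads of both genes cannot be fully told apart there, and the other hosted members overlapped no exon of their host. Kansl2 was at 71.5, 66.1 and 62.2 TPM in WT and at 83.3, 98.95 and 91.2 TPM in KO samples, with every KO sample above every WT sample and a log2 fold change of 0.45 (SE 0.10, limma adjusted p = 0.012), and its part in the value of Snora2b was not tested. For 26 members the host was tested as well, which gave 25 different hosts, since Snord53 and Snord92 both lie in Wdr43. The median log2 fold change of the hosts was 0.13 over these pairs, against 0.42 for the snoRNAs, and the snoRNA estimate was above that of its host in 20 of 26 pairs. Across the 26 pairs Pearson's r between both log2 fold changes was 0.01 and Spearman's rho was 0.06, as a description over genes that share the same 6 libraries and mostly rest on few snoRNA reads.

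**Figure D4:**
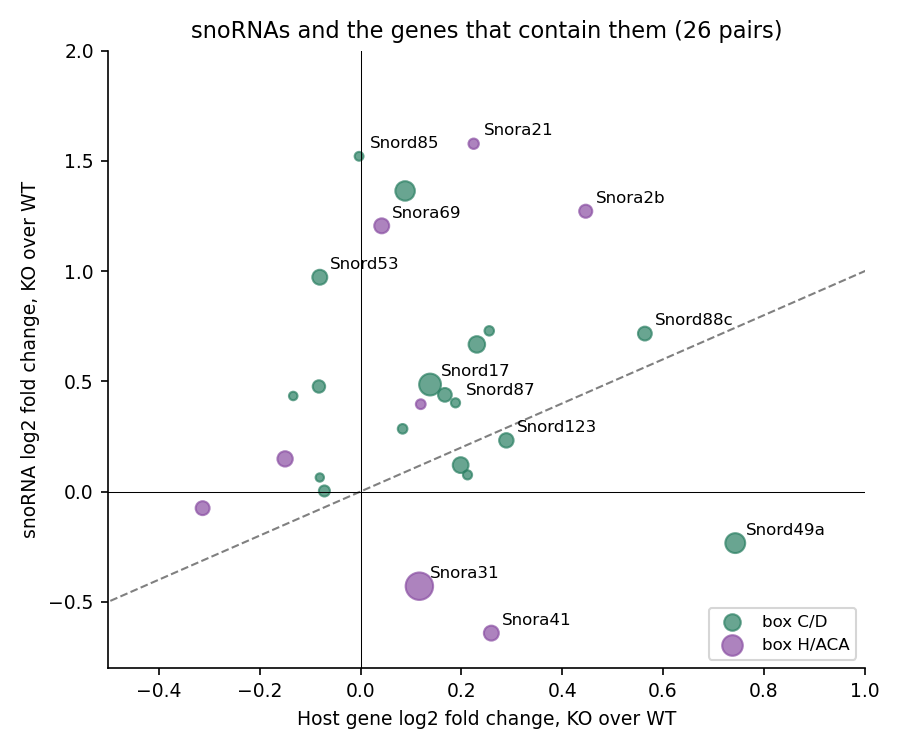
Log2 fold change (KO over WT) of the host gene (horizontal) and for the snoRNA within it (vertical), both on log2(TPM + 1), for 26 pairs, with point area growing with the mean reads of the snoRNA. The dashed line marks equal values, 20 of the 26 points lie above it, and Snord49a, Snora41 and Snora31 lie farthest below.

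Of the 25 tested hosts 1 was called by limma, 2410002F23Rik, which holds Snord88c, where 10.7% of all tested genes were called in either direction and 1.64% higher. It was at 26.5, 29.1 and 26.1 TPM in WT and at 37.6, 43.7 and 40.9 TPM in KO samples (log2 fold change 0.56, SE 0.10, limma adjusted p = 0.0037), and Snord88c stood 0.15 above it on the log2 scale. The host of Snord49a, 2410006H16Rik, was at 163, 152 and 116 TPM in WT and at 190, 271 and 266 TPM in KO samples, with a log2 fold change of 0.74 (SE 0.17, limma adjusted p = 0.0097). The log2 ratio of Snord49a to this host was -2.45, -1.97 and -1.82 in WT and -3.12, -3.42 and -2.64 in KO samples, so every KO ratio was below every WT ratio. The shift of -0.98 had a p of 0.1 in an exact two-sided permutation test, the smallest that 3 against 3 samples allow. The log2 ratio of Snord53 to Wdr43 was -2.33, -3.91 and -2.75 in WT and -1.71, -2.19 and -1.93 in KO samples. Here every KO ratio was above every WT ratio, with a shift of 1.05 and again p = 0.1 in the exact two-sided permutation test. In the other 24 tested pairs the ratios of the groups overlapped. Rpl39, the host of Snora69, was at 251 ± 45.6 TPM in WT and 257 ± 32.5 TPM in KO samples (SD, n = 3 each), with a log2 fold change of 0.04 (SE 0.15), and was not called.

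The non-coding Snhg genes, Gas5 and Zfas1 are hosts whose spliced RNAs encode no conserved protein, and several of these RNAs are known targets of nonsense-mediated decay. All 13 that were tested had a positive log2 fold change, with a median of 0.29, where 42.6% of all tested genes were positive. The KO samples lay above all WT samples in 6 (Gas5, Snhg8, Snhg12, Snhg15, Snhg18 and Snhg20), where 13.3% of all tested genes had that pattern. Snhg11, too low to be tested, was at 0.14, 0.08 and 0.26 TPM in WT and at 0.05, 0 and 0.03 TPM in KO samples, the only one of these genes with every KO sample below every WT sample. Snhg20 was the only one called higher by limma, as were 1.64% of all tested genes. It was at 7.20, 8.57 and 8.41 TPM in WT and at 12.1, 12.8 and 14.9 TPM in KO samples, and it rose by 0.65 on the log2 scale (SE 0.13, limma adjusted p = 0.0046). Its adjusted p was above 0.005 when any 1 sample was left out.

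Snhg8 was at 36.0, 37.3 and 27.4 TPM in WT and at 47.7, 62.8 and 63.4 TPM in KO samples. Its log2 fold change was 0.77 (SE 0.15), and its adjusted p of 0.0051 by limma was just above the threshold. Gas5, the most abundant of these hosts, was at 65.1, 62.9 and 52.6 TPM in WT and at 74.7, 105.9 and 93.7 TPM in KO samples, with a log2 fold change of 0.59 (SE 0.14, limma adjusted p = 0.014). Snhg12 and Snhg15 had log2 fold changes of 0.56 and 0.52 with adjusted p of 0.018 and 0.017 by limma. Snhg20, Snhg8, Gas5, Snhg12 and Snhg15 were all called with scaling by median of ratios, where 2.99% of all tested genes were called higher, and with voom on reads, where 3.05% were. None of the 13 was called with all genes tested, where 55 of 26898 genes were called higher. None was called with no variance trend either, where 187 of 14799 genes were called higher. Without the 2 most abundant RNAs 3 were called (Gas5, Snhg15 and Snhg8), where 1.93% of all tested genes were called higher and Snhg20 was not called (limma adjusted p = 0.0060). Snhg18 had a log2 fold change of 0.29, and Snhg1, Snhg4, Snhg5, Snhg6, Snhg10, Snhg17 and Zfas1 had values of 0.11 to 0.36 with overlapping groups.

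**Figure D5:**
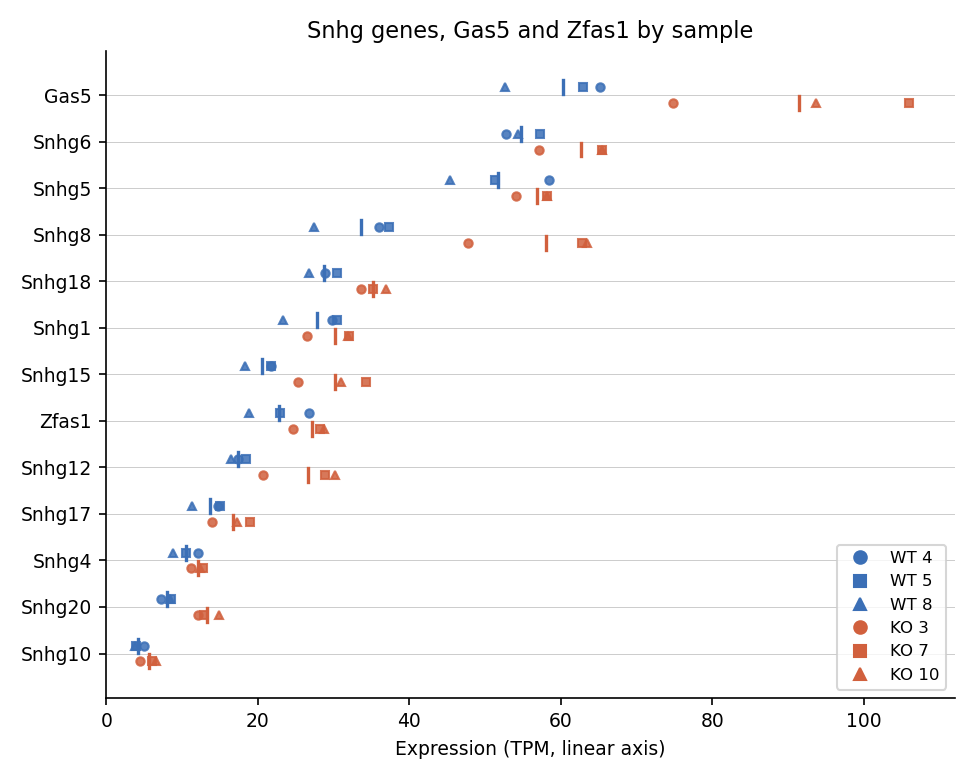
Expression in TPM (horizontal, linear axis) of the 13 tested Snhg genes, Gas5 and Zfas1 included, in the 3 WT samples (blue) and the 3 KO samples (orange), with a short vertical line at each group mean. Gas5 and Snhg8 have the widest gaps between the group means, and the groups overlap in Snhg6, Snhg5, Snhg1, Zfas1, Snhg17, Snhg4 and Snhg10.

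Only 3 small RNAs of these hosts had a row in the expression table, and none was called. Snord123 in Snhg18 was at 12.2, 8.03 and 16.3 TPM in WT and at 5.81, 21.8 and 20.5 TPM in KO samples, a log2 fold change of 0.23 (SE 0.42) beside 0.29 (SE 0.10) for its host. Snord87 in Snhg6 had 3, 1 and 0 reads in WT and 0, 3 and 4 reads in KO samples, a log2 fold change of 0.40 (SE 0.71) beside 0.19 (SE 0.10) for its host. Scarna13 in Snhg10, which guides modification of spliceosomal RNA, had 0, 3 and 0 reads in WT and 2, 0 and 6 reads in KO samples. The errors of these small RNAs were several times those of their hosts. The 10 small RNAs annotated within Gas5 and the 8 within Snhg1 had no row, so they could not be set beside their hosts.

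Genes of the proteins that bind and mature snoRNAs, together with nonsense-mediated decay factors, were taken from 5 lists with 51 tested genes. None of the 4 box C/D core proteins (Fbl, Nop56, Nop58 and Snu13) and none of the 4 box H/ACA core proteins (Dkc1, Nhp2, Nop10 and Gar1) was called, where 10.7% of all tested genes were called in either direction. Their log2 fold changes ran from -0.07 for Snu13 to 0.21 for Nop56 in the first list and from -0.30 for Dkc1 to 0.20 for Nhp2 in the second. With 1 sample left out, Dkc1 ran from -0.44 to -0.15, Nhp2 from 0.13 to 0.29 and Nop56 from 0.12 to 0.31. The value of Snu13 became 0.02 with scaling by median of ratios. Dyskerin (Dkc1) was at 68.0, 52.7 and 44.9 TPM in WT and at 38.2, 48.8 and 45.2 TPM in KO samples, with overlapping groups.

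Of 13 tested snoRNP assembly factors, 3 were called lower and 0 higher, and of 20 tested genes for intron debranching, trimming and decay, 2 were called lower and 0 higher, where 9.03% of all tested genes were called lower. The median log2 fold changes were -0.26 and -0.30, against -0.07 over all tested genes. None of the 5 was called with all genes tested, where 286 of 26898 genes were called lower and the limma adjusted p of Znhit3 was 0.0060. Znhit3 was the only one of the 5 called whichever sample was left out. Znhit3, a zinc finger protein of box C/D assembly, was at 13.5, 12.5 and 11.3 TPM in WT and at 4.31, 4.98 and 6.14 TPM in KO samples, and it fell by 1.14 on the log2 scale (SE 0.14, limma adjusted p = 0.00064). Coil, which encodes coilin, the scaffold of Cajal bodies, fell from 9.19, 8.49 and 8.12 to 4.45, 4.66 and 4.74 TPM (log2 fold change -0.77, SE 0.12, limma adjusted p = 0.0016), and its adjusted p was 0.0051 to 0.0076 with 1 sample left out. Rpap3, a part of the R2TP chaperone complex, fell by 0.60 on the log2 scale with an adjusted p of 0.0050 by limma, just under the threshold, and with the pseudocount of 0.1 it was just above it. Exosc9, a core subunit of the RNA exosome, was at 17.8, 16.3 and 14.9 TPM in WT and at 8.96, 9.80 and 8.85 TPM in KO samples, and it fell by 0.76 (SE 0.11, limma adjusted p = 0.0014). C1d, a nuclear cofactor of the exosome, was at 29.1, 24.4 and 22.7 TPM in WT and at 14.0, 16.7 and 15.3 TPM in KO samples, and it fell by 0.69 (SE 0.12, limma adjusted p = 0.0035), with an adjusted p of 0.0055 to 0.014 with 1 sample left out. None of the 10 nonsense-mediated decay factors was called by limma, and their median log2 fold change was -0.01. These genes are measured by 164 to 709 reads per sample for those called, against a median of 7.92 for the snoRNAs.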

How the data were processed

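RNA sequencing was measured in 3 WT and 3 KO samples of primary MEFs, each group from separate mice according to the study's methods. Libraries were prepared from 2 μg RNA with the NEBNext Ultra RNA kit, sequenced on a NovaSeq instrument, and aligned by the authors to mm10 with STAR. The submitters' processing notes also name Bowtie 0.12.2, with no role given. The counting program, its use of strand and its handling of reads with several matches were not given in the sources used here, so antisense overlaps (Snora78 with Rps2, Snora23 with 1600010M07Rik and Snord8 with Gm26590) cannot be resolved. The authors deposited TPM per gene, with symbols absent for 8908 of 26898 rows. The deposited log2 fold changes and adjusted p-values are the authors' own DESeq2 comparison and were not used.

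The product of each value and the gene's merged exon length (GENCODE M21) gave whole reads within 0.05 for 100% of the values checked, with 17655495 to 27718259 reads per sample. These recovered reads served for depth, counting intervals and 1 alternative fit. The counting intervals (95%, exact binomial) are for the ratio of KO to WT reads, scaled by the TPM that 1 read was worth in each library. Groups were compared with limma 3.58.1 in R 4.3.3 (variance trend, no covariates) on log2(TPM + 1), so fold changes of low genes are understated. Tested genes (14799) averaged 1 TPM or more in WT or in KO, with Benjamini-Hochberg adjustment over all of them. A gene was called at an adjusted p under 0.005 and a log2 fold change beyond 0.5, the thresholds of the study. The procedure was tested on simulated data. Means are given ± SD.

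The members and all gene lists were chosen with earlier results of these data known. Genes to be named were Kansl1, called members, the 5 highest of each class, the 3 nearest to the level limit on either side, Snhg genes with Gas5 and Zfas1, core snoRNP proteins and called genes of the other lists. Snhg genes were matched by deposited symbol or, without one, by annotated name. Other snoRNAs were described after their values had been seen. Nopchap1 and Exosc6 were not matched to a row. A host gene and a sequence are not reported here. Host genes were the annotated genes of the same strand that contain a member. Alternatives were a pseudocount of 0.1, no filter, a filter of 10 TPM on the mean over all samples rather than of either group, scaling by median of ratios, and rescaling without the 2 most abundant RNAs. Further alternatives were limma with no variance trend, voom on recovered reads with at least 10 per sample, an adjusted p of 0.05, and each sample left out in turn.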

Additional observations from a re-analysis of the deposited data

How the results depend on the processing

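No paired analysis was possible because no replicate number occurs in both groups. The number of snoRNAs called higher (0) was 4 with genes averaging at least 10 TPM over all 6 samples, where 3.73% of the genes tested were called higher. That filter changed both the level and the averaging, since the main filter used the mean of either group. The number was 1 with scaling by median of ratios, 1 without the 2 most abundant RNAs (Snord104 in both) and 4 at an adjusted p under 0.05. In these settings 2.99%, 1.93% and 4.69% of all tested genes were called higher, against 1.64% in the main fit. The number of snoRNAs called higher was 0 to 2 with 1 sample left out and 0 with the other settings on all 6 samples, and no setting called a snoRNA lower. With 1 sample left out, 84 to 252 of 14800 to 14899 tested genes were called higher and 617 to 938 lower. The box C/D median (0.44) ran from 0.30 to 0.71 and the box H/ACA median (0.32) from 0.12 to 0.44 with 1 sample left out, lowest without WT 8 in both classes and highest without KO 10 (C/D) and without WT 5 (H/ACA). The box H/ACA median was -0.059 with members of at least 10 TPM. The number of Snhg genes called (1) was 0 with all genes tested, 0 with no variance trend, 3 without the 2 most abundant RNAs, and 5 with each of the 10 TPM filter, median of ratios, voom and an adjusted p under 0.05, and 0 to 1 with 1 sample left out. The share of tested genes called higher was 1.93% without the 2 most abundant RNAs. For the settings with 5 calls it was 3.73%, 2.99%, 3.05% and 4.69%, in the order given. Among the 51 snoRNP, maturation and nonsense-mediated decay genes, the number called (5) was 0 with all genes tested and 3 with no variance trend. It was 10 with voom, 9 at an adjusted p under 0.05, and 1 to 3 with 1 sample left out. Of all genes, 55 were called higher and 286 lower of 26898 with all genes tested, and 187 and 1149 of 14799 with no variance trend. With voom 458 and 2208 of 15013 were called, and at an adjusted p under 0.05 694 and 2453 of 14799. The main fit called 10.7% in either direction. Scaling by median of ratios moved the median of all genes from -0.07 to 0.01.

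The log2 fold change turned sign for Snu13 (0.018) and Snora47 (0.0013) with median of ratios and for Snord7 (-0.36) and Snord92 (-0.65) with the pseudocount of 0.1. With 1 sample left out it crossed 0 for 16 genes, ranging from -0.074 to 0.11 for Fbl, -0.093 to 0.20 for Gar1, -0.069 to 0.11 for Nop58, -0.14 to 0.015 for Snu13, -0.0067 to 0.20 for Snhg1, -0.30 to 0.32 for Snora47, -0.29 to 1.12 for Snora62, -0.69 to 0.93 for Snord110, -0.073 to 0.80 for Snord123, -0.28 to 1.16 for Snord7, -0.98 to 0.59 for Snord8, -0.024 to 0.80 for Snord83b, -0.20 to 1.20 for Snord87, -0.10 to 0.26 for Snord89, -0.35 to 0.51 for Snord92 and -0.098 to 0.40 for Terc. Among fits of single results on all 6 samples, 356 kept direction and side of the threshold, 21 passed it newly, 23 no longer passed it and 4 turned sign; the causes were not tested.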

Other observations

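Beyond the genes with a snoRNA symbol, 152 further genes of the snoRNA or scaRNA biotype were tested, most under a gene model name. Their median log2 fold change was 0.23, 100 of the 152 were positive, and 5 were called higher by limma and 0 lower, where 1.64% of all tested genes were called higher. One of the 5 rested on 1 read in every KO sample and 0 reads in WT samples and is not described further. Gm23600, in the imprinted non-coding gene Rian, was at 8.69, 17.7 and 5.94 TPM in WT and at 29.0, 42.2 and 31.6 TPM in KO samples, and it rose by 1.69 on the log2 scale (SE 0.31, limma adjusted p = 0.0035). Gm26387, in Rpl5, was at 7.48, 4.32 and 4.79 TPM in WT and at 15.6, 17.2 and 11.9 TPM in KO samples, and it rose by 1.30 (SE 0.20, limma adjusted p = 0.0015). Gm22748, in Odc1, the gene of the first enzyme of polyamine synthesis, was at 9.98, 5.87 and 5.43 TPM in WT and at 14.2, 15.2 and 16.5 TPM in KO samples, and it rose by 1.05 (SE 0.19, limma adjusted p = 0.0037). These 3 genes had 11.7 to 14 reads per sample on average. Gm23608, in Atp5c1, rested on 1, 1 and 2 reads in WT and 3, 6 and 6 in KO samples. With all genes tested none of these 4 genes was called, at limma adjusted p of 0.013 to 0.025, where 55 of 26898 genes were called higher. With voom on reads, Gm23600, Gm26387 and Gm22748 were not called either, at adjusted p of 0.0066, 0.012 and 0.021. Each of the 4 was no longer called by limma without at least 3 of the 6 samples, taken one at a time.

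Other short RNA biotypes had positive medians as well, with 0.40 over 226 miRNA genes, 0.27 over 132 snRNA genes and 0.52 over 33 genes of the misc_RNA class, against -0.07 over all tested genes. Most of these genes also had under 10 reads per sample. None of the 4 tested scaRNA genes was called by limma, where 10.7% of all tested genes were called in either direction. Of these 4, Scarna3a alone was above WT in every KO sample, a pattern that 13.3% of all tested genes had. Scarna3a had 0 reads in WT and 2, 1 and 1 reads in KO samples. It met the level rule only through the KO samples, so it is no support for a difference. Rn7sk, the RNA that holds the elongation factor P-TEFb inactive, was at 1.49, 2.76 and 3.19 TPM in WT (4, 8 and 10 reads) and at 9.97, 14.7 and 23.0 TPM in KO samples (24, 47 and 68 reads), and it rose by 2.24 on the log2 scale (SE 0.28, limma adjusted p = 0.00067, or 0.0083 and not called with all genes tested). The telomerase RNA Terc had a log2 fold change of 0.22 with overlapping groups, or -0.098 without KO 3.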
